A study of Arabidopsis thaliana with 6 samples.

Results

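PID, WAG and phototropin kinases belong to a plant branch of the AGC protein kinases. They are described here together with the other AGC kinases UCN and OXI1 and with the adaptor proteins RPT2 and NPH3. The 10 genes were taken by locus from a table of 27779 gene rows and all 10 were found: PID (AT2G34650), PID2 (AT2G26700), WAG1 (AT1G53700), WAG2 (AT3G14370), UCN (AT1G51170), OXI1 (AT3G25250), PHOT1 (AT3G45780), PHOT2 (AT5G58140), RPT2 (AT2G30520) and NPH3 (AT5G64330). Transcripts were measured by RNA-seq in whole Arabidopsis thaliana siliques, the fruits with their young seeds, collected 3 days after pollination. The mutant agc1-4 and WT gave 3 libraries each. In the table WT is headed Col and agc1-4 is headed sr, matched through the sample descriptions. The kind of mutation behind agc1-4 was not given in the sources used here. The sources also do not say if replicates were separate plants or repeat preparations. The p-values therefore cover only the variation among the deposited libraries.

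As background, PID, PID2, WAG1 and WAG2 phosphorylate PIN proteins, the membrane carriers that export auxin, and thereby help to set on which side of a cell the carriers sit. The phototropins PHOT1 and PHOT2 are blue light receptors that join light-sensing LOV domains to a kinase of the same family. They steer bending towards light, chloroplast position and stomatal opening, and NPH3 and RPT2 are plasma membrane adaptors through which they act. UCN keeps the growth of ovule integuments, the tissue that becomes the seed coat, in flat layers, and OXI1 is switched on by hydrogen peroxide and by the upstream kinase PDK1.

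Estimated read counts per library totalled 7973366 to 11812934. The mutant check, AGC1-4 (taken as AT5G40030 from background knowledge, since the table gives it no such name), had 0.09, 0.39 and 0.07 FPKM in agc1-4 replicates 1 to 3 and 0.63, 1.78 and 1.01 FPKM in WT replicates 1 to 3. FPKM are the deposited fragment values, scaled by the authors to the length of the gene and the size of the library. All 6 markers of fruit valve, valve margin and ovule were expressed, among them the ovule regulator STK at 371 ± 14.7 FPKM in agc1-4 and 345 ± 5.82 FPKM in WT (SD, n = 3 each). The valve regulator FUL, at 52.3 ± 6.11 FPKM in agc1-4 and 58.6 ± 1.20 FPKM in WT, was the 1 silique marker called lower by edgeR (adjusted p = 0.0411), and DESeq2 and limma called 0 of the 6. WT replicate 3 stood apart on the principal component ranked after that of genotype (14.7% of the variance), with a score of 25.3, where the rest scored between -12.9 and 4.08.

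The 10 genes spanned a wide range of levels. At an adjusted p under 0.05 edgeR called 4 of them lower in agc1-4 siliques: RPT2, PHOT2, WAG1 and PID. Of all genes tested 7.07% were called lower, and DESeq2 and limma called fewer of the 10 than edgeR. UCN had the highest level in both genotypes, at 76.6 ± 2.90 FPKM in agc1-4 and 69.7 ± 3.85 FPKM in WT, and made up 43.6% of the summed FPKM of the 10 genes over all libraries. PHOT2 came next and RPT2 after it, and the values of these 3 genes did not overlap within either genotype. PHOT1, PID and NPH3 lay between 5.15 and 9.48 FPKM in every library. WAG1 averaged 1.90 ± 0.294 FPKM in agc1-4 and 3.34 ± 0.681 FPKM in WT. WAG2, OXI1 and PID2 stayed under 1 FPKM. In agc1-4 only PHOT1 and PID overlapped as neighbours in the order of levels, whereas in WT PID lay above PHOT1 in every library, and WAG2 overlapped OXI1 and OXI1 overlapped PID2.

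**Figure D1:**
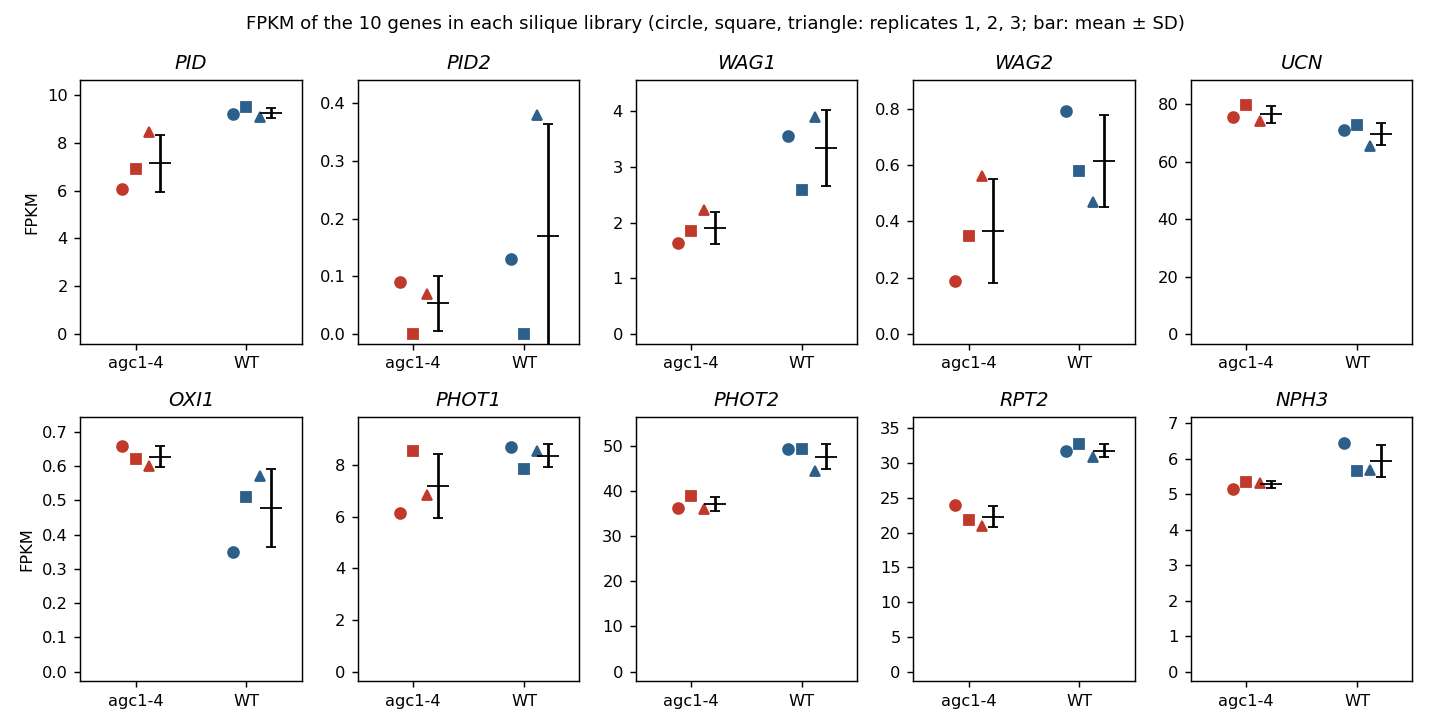
FPKM of each gene (y axis, from 0, own scale per panel) in agc1-4 (red, left) and WT (blue, right) silique libraries; circles, squares and triangles are replicates 1, 2 and 3, and the bar is the mean ± SD over 3 libraries. For PHOT2, RPT2, WAG1, PID and NPH3 every agc1-4 library lies below every WT library, and for UCN and OXI1 every one lies above. Such separation was found for 15.0% (lower) and 14.5% (higher) of all genes tested. The PHOT1, WAG2 and PID2 values of the genotypes overlap.

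Of the 10 genes, 7 passed the filter on low counts and were tested with edgeR's quasi-likelihood test, adjusted by Benjamini-Hochberg over all 18828 genes tested. At an adjusted p under 0.05, 4 were lower and 0 were higher in agc1-4. DESeq2 called 2 lower and limma 3, and both called 0 higher. At an unadjusted edgeR p under 0.05, 1 of the 7, UCN, was higher. Over all genes tested, 7.07% were called lower and 6.55% higher, 13.6% in either direction. The 3 genes with adjusted p above the threshold were PHOT1, NPH3 and UCN. WAG2, OXI1 and PID2 had too few counts to be tested. Whole siliques were measured, so fewer cells of a type and less RNA per cell cannot be told apart.

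**Figure D2:**
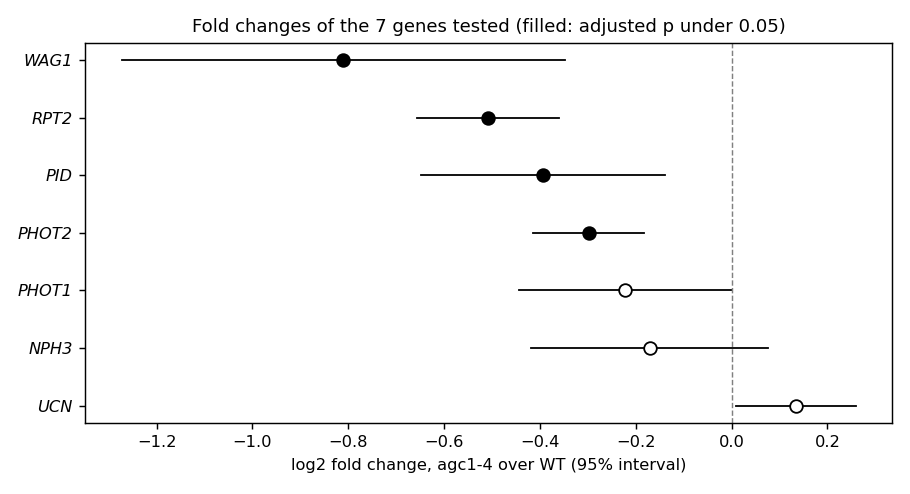
Log2 fold change of agc1-4 over WT (x axis) with its 95% interval for the 7 genes tested in edgeR, 3 libraries per genotype; filled points passed an adjusted p of 0.05. WAG1 has the lowest estimate (-0.81) and the widest interval, and UCN alone lies above 0.

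Among the kinases that act on PIN carriers, PID was lower in agc1-4. It had 6.05, 6.91 and 8.43 FPKM in agc1-4 replicates 1 to 3, against 9.18, 9.48 and 9.05 FPKM in WT replicates 1 to 3. The genotypes did not overlap, but agc1-4 replicate 3 came close to the WT range, and the mutant libraries were spread more widely (SD 1.21) than the WT ones (SD 0.221). The log2 fold change was -0.39 ± 0.12 (SE; edgeR adjusted p = 0.0329), which is 1.31-fold lower. The call was lost in DESeq2 (adjusted p = 0.146) and in limma on FPKM (adjusted p = 0.0881 and 0.0901). It was also lost without agc1-4 replicate 1, where the log2 fold change was -0.27 (adjusted p = 0.244), and without agc1-4 replicate 2, WT replicate 1 or WT replicate 2 (adjusted p = 0.122, 0.0813 and 0.0589).

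WAG1, a kinase known for restraining root waving together with WAG2, had 1.64, 1.85 and 2.22 FPKM in agc1-4 replicates 1 to 3 and 3.56, 2.58 and 3.89 FPKM in WT replicates 1 to 3. Every mutant library was below every WT library, with WT replicate 2 nearest. In counts this was 36, 33 and 33 in agc1-4 and 56, 56 and 61 in WT. The log2 fold change was -0.81 ± 0.23 (SE; edgeR adjusted p = 0.0148), 1.75-fold lower and the deepest of the 7, with a 95% interval of -1.27 to -0.35. WAG1 was not called in DESeq2 (adjusted p = 0.0699) or without agc1-4 replicate 1, agc1-4 replicate 2, WT replicate 1 or WT replicate 3 (adjusted p = 0.0931, 0.0594, 0.0645 and 0.0635).

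The closest relatives of these kinases were near the limit of detection. WAG2 had 4, 6 and 8 counts in agc1-4 and 12, 12 and 7 counts in WT (0.367 ± 0.186 and 0.613 ± 0.163 FPKM). Its values overlapped between genotypes, and a fit without the filter gave a log2 fold change of -0.79 ± 0.56 (SE; edgeR adjusted p = 0.422). PID2 had 2, 0 and 1 counts in agc1-4 and 2, 0 and 6 in WT. A count of 0 allows up to 3 counts in a library, 0.313 CPM (counts scaled to library size) in agc1-4 replicate 2 and 0.257 CPM in WT replicate 2, for counting error only. No difference in PID2 was detectable at this depth.

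The AGC2 kinases UCN and OXI1 were not among the called genes. UCN had 75.69, 79.79 and 74.18 FPKM in agc1-4 and 71.02, 72.69 and 65.34 FPKM in WT. The lowest mutant library lay above the highest WT library, but the difference was small, with a log2 fold change of 0.13 ± 0.06 (SE; 95% interval 0.01 to 0.26; edgeR adjusted p = 0.156). Over all genes tested, 14.5% had all agc1-4 values above all WT values. UCN was not called in any of the 14 alternatives run. OXI1 had 0.66, 0.62 and 0.60 FPKM in agc1-4 and 0.35, 0.51 and 0.57 FPKM in WT, from 31 counts in all mutant libraries and 23 in all WT libraries. Without the filter its log2 fold change was 0.39 ± 0.53 (SE; edgeR adjusted p = 0.706).

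PHOT2, the phototropin best known for the chloroplast avoidance response in strong light, was lower in agc1-4. It had 36.30, 38.91 and 36.08 FPKM in agc1-4 replicates 1 to 3, against 49.27, 49.19 and 44.27 FPKM in WT replicates 1 to 3. The highest mutant library was below the lowest WT library, and the mutant mean was 78.0% of the WT mean. The log2 fold change was -0.30 ± 0.06 (SE; 95% interval -0.42 to -0.18; edgeR adjusted p = 0.00047). PHOT2 was called in all 14 alternatives, with log2 fold changes of -0.36 to -0.24 and adjusted p of 3.65e-05 to 0.00833. In the RefSeq annotation it overlaps AT5G58150 on the opposite strand, which had 0 counts in every agc1-4 library and 0, 12 and 0 in WT, beside 1136 to 2180 counts of PHOT2 per library.

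PHOT1, the more sensitive phototropin of seedling bending, had 6.16, 8.56 and 6.84 FPKM in agc1-4 and 8.70, 7.85 and 8.56 FPKM in WT. The genotypes overlapped, with agc1-4 replicate 2 at the WT level and the other mutant libraries below it. The log2 fold change was -0.22 ± 0.11 (SE; 95% interval -0.44 to 0.00; edgeR adjusted p = 0.191). Without agc1-4 replicate 2 it was -0.37 and was called (adjusted p = 0.0426). Without agc1-4 replicate 1 it was -0.11.

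RPT2, an adaptor that binds phototropins and whose transcript is itself induced by light in seedlings, had the smallest p of the 7 genes tested. It had 23.98, 21.87 and 20.98 FPKM in agc1-4 and 31.80, 32.67 and 30.84 FPKM in WT. The mutant and WT values were well separated, and the mutant mean was 70.1% of the WT mean. The log2 fold change was -0.51 ± 0.07 (SE; edgeR adjusted p = 1.04e-05), 1.42-fold lower. It was called in all 14 alternatives, with log2 fold changes of -0.56 to -0.47.

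NPH3, the adaptor required for bending towards light, had 5.15, 5.34 and 5.32 FPKM in agc1-4 and 6.45, 5.66 and 5.67 FPKM in WT. The genotypes did not overlap, but the gap between the highest mutant and the lowest WT library was narrow, and WT replicate 1 lay farthest above the rest. All agc1-4 values lay below all WT values for 15.0% of all genes tested. The log2 fold change was -0.17 ± 0.12 (SE; 95% interval -0.42 to 0.08; edgeR adjusted p = 0.396), and NPH3 was called in 0 of 14 alternatives. NPH3 overlaps SAC51 (AT5G64340) on the opposite strand. SAC51 had more counts than NPH3 (4277 and 427 over the agc1-4 libraries, 4528 and 466 over the WT libraries), and the strand of the libraries was not given in the sources used here.

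**Figure D3:**
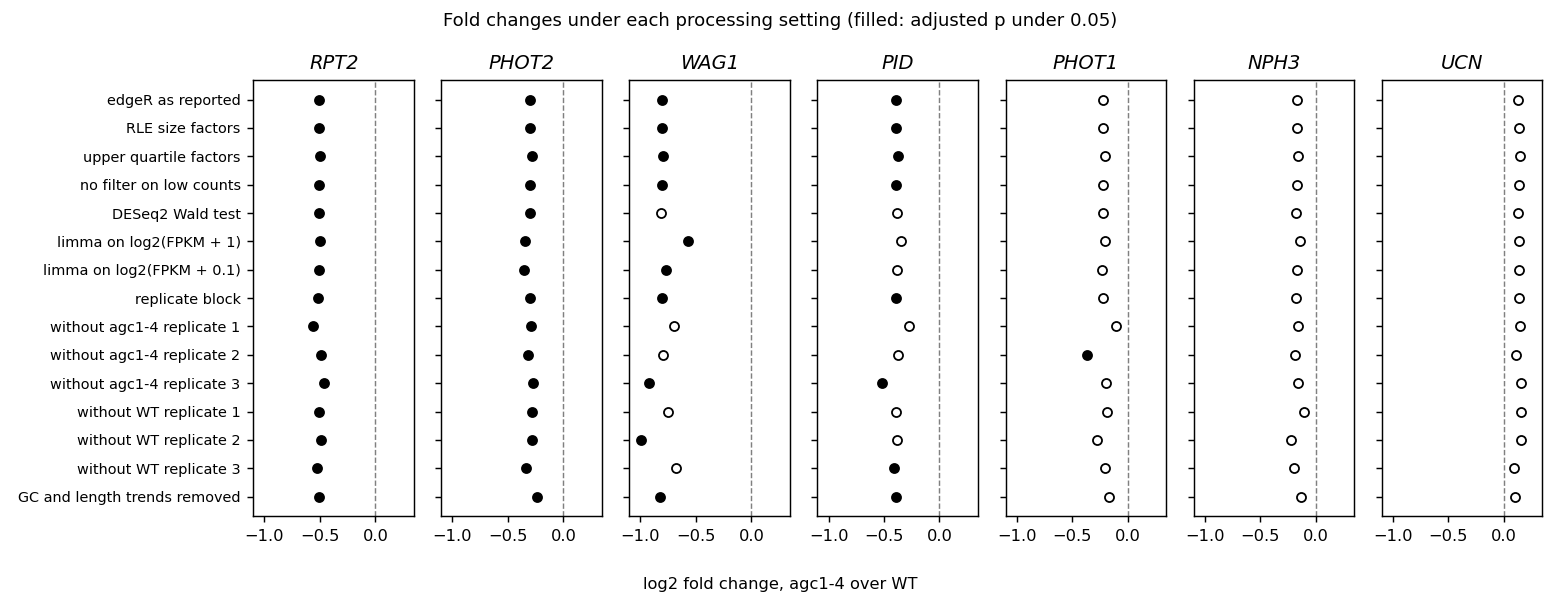
Log2 fold change of agc1-4 over WT (x axis) of the 7 genes tested, under the reported edgeR fit and 14 other settings (y axis); filled points passed an adjusted p of 0.05. RPT2 and PHOT2 are filled in every row, WAG1 in 10 of 15 and PID in 8 of 15, and no gene crosses 0.

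To set the change of each gene against that of its relative, the ratio of both was taken inside each library. Log2 ratios had 0.1 FPKM added to each gene, so they depend little on library scaling only where both genes are well above 0.1 FPKM. The RPT2 to NPH3 ratio was 4.66, 4.10 and 3.94 in agc1-4 and 4.93, 5.77 and 5.44 in WT. Every mutant ratio was below every WT ratio, and the mean log2 ratio differed by -0.35 (2.06 ± 0.125 in agc1-4 and 2.41 ± 0.113 in WT, SD, n = 3). An exact two-sided permutation test gave p = 0.1, the smallest that 3 against 3 libraries allow, or 0.4 adjusted over the 4 ratios compared. The PHOT2 to PHOT1 ratio was 5.89, 4.55 and 5.27 in agc1-4 and 5.66, 6.27 and 5.17 in WT, and the genotypes overlapped (difference in log2 ratio -0.13, exact permutation p = 0.5). Thus a larger change of PHOT2 than of PHOT1 was not detected, although only PHOT2 was called; the difference was -0.22 without agc1-4 replicate 1 and -0.03 without agc1-4 replicate 2, and -0.06 without WT replicate 2 or as a ratio of counts. The WAG1 to WAG2 and PID to PID2 ratios also overlapped (exact permutation p = 0.7 and 0.9), with differences of -0.10 and 0.21, and both changed direction when single libraries were left out. With a pseudocount of 1 instead of 0.1 the WAG1 to WAG2 difference was -0.33 (exact permutation p = 0.1, the smallest possible). That of PID to PID2 was then -0.20. WAG2 was under 1 FPKM in every library, so the value of -0.33 rests largely on WAG1 alone. As ratios of counts the differences were -0.04 for WAG1 to WAG2 and 0.26 for PID to PID2 (exact permutation p = 0.9 each). PID2 was at 0 FPKM in agc1-4 replicate 2 and WT replicate 2, so the PID to PID2 ratio there rests on the pseudocount.

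**Figure D4:**
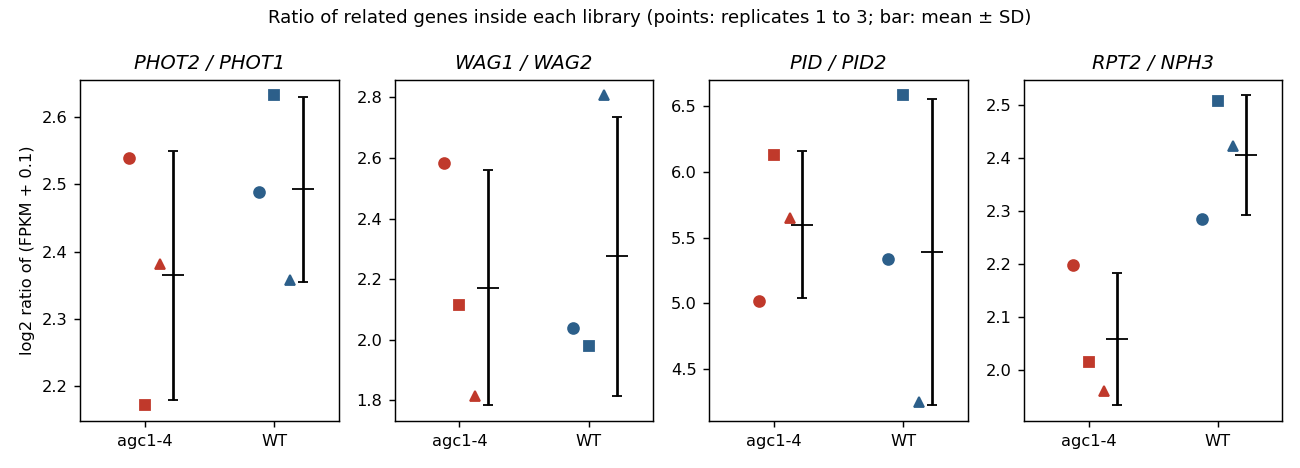
Log2 ratio of FPKM + 0.1 between related genes inside each library (y axis, own scale per panel, not from 0) in agc1-4 (red, left) and WT (blue, right); points are replicates 1 to 3 and the bar is the mean ± SD. Only the RPT2 to NPH3 ratio is free of overlap between genotypes.

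Across the 6 libraries, PHOT2 and RPT2 followed each other most closely among the 7 genes (Pearson r = 0.935 of log2(FPKM + 1)), then PHOT2 and NPH3 (r = 0.841) and WAG1 and PID (r = 0.821). UCN ran opposite to WAG1 (r = -0.887). These correlations are descriptions over 6 libraries in 2 genotypes, so any pair of genes that differs by genotype is correlated. The same holds for the genes most like each called gene among 18187 others. EX1, a chloroplast protein of singlet oxygen signalling, was closest to WAG1 (r = 0.999), AT5G14850, described as a mannosyltransferase, to PID (r = 0.987), AT1G67470, described as an inactive kinase, to PHOT2 (r = 0.996) and AT5G54710, an ankyrin repeat gene, to RPT2 (r = 0.996). The number of genes with r above 0.95 was 370 for RPT2, 340 for PHOT2, 99 for WAG1 and 55 for PID.

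Partners of these kinases were followed in 6 lists with 63 genes in all. Over all genes tested the median log2 fold change was 0.00, and every list median was below it. Of those genes 7.07% were called lower and 6.55% higher, which is the share to set beside the counts per list. A single call in a short list describes that gene and not the list. No listed partner was called higher by edgeR, DESeq2 or limma. At an unadjusted edgeR p under 0.05 only PKS4, a relative of PKS2, was higher (1.04 ± 0.217 FPKM in agc1-4 and 0.557 ± 0.0289 FPKM in WT).

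Auxin efflux carriers were lower in part, and the phosphatase subunits that oppose PID and WAG kinases were not called. Of 13 tested genes 4 fell and 0 rose, with a median log2 fold change of -0.13. PIN3, an auxin efflux carrier of tropic growth, had 47.54, 45.84 and 46.87 FPKM in agc1-4 and 51.82, 62.15 and 52.31 FPKM in WT (log2 fold change -0.25 ± 0.06, SE; edgeR adjusted p = 0.00789). PIN7 was 1.25-fold lower and the ABC-type auxin exporters ABCB19 and ABCB1 were 1.15-fold and 1.11-fold lower (edgeR adjusted p = 0.027, 0.0204 and 0.0376). Among the phosphatase genes, RCN1, PP2AA2, PP2AA3, FYPP1 and FYPP3, log2 fold changes were -0.13 to -0.01. The count changed with the setting: limma on FPKM called 0 of the list, 1 was called without agc1-4 replicate 2, without WT replicate 1 or with trends of GC content and length removed, and 2 without agc1-4 replicate 1 or 3.

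Of 8 tested upstream kinases and binding partners, 3 fell and 0 rose (median log2 fold change -0.24). TCH3, a touch-induced calmodulin-like protein that binds PID, had 7.81, 6.85 and 6.55 FPKM in agc1-4 and 15.98, 15.26 and 13.85 FPKM in WT. All mutant values were far below all WT values, and the log2 fold change of -1.11 ± 0.13 (SE; edgeR adjusted p = 6.15e-07) exceeded in size that of any of the 7 tested kinases and adaptors. MPK3 and PTI1-4, which act downstream of OXI1, were 1.40-fold and 1.32-fold lower (edgeR adjusted p = 0.000497 and 0.000975). Their neighbour in that cascade, MPK6, had a log2 fold change of 0.11 ± 0.07 (edgeR adjusted p = 0.366). PTI1-2, of the same list, had a log2 fold change of -0.06 ± 0.08 (edgeR adjusted p = 0.714). All 3 calls held in each of the 14 alternatives. PDK1, which activates OXI1 and PID, averaged 39.4 ± 3.12 FPKM in agc1-4 and 39.9 ± 2.18 FPKM in WT (edgeR adjusted p = 0.86). KAN4, the integument regulator that UCN holds in check, had 1.21, 0.84 and 1.24 FPKM in agc1-4 and 2.16, 1.05 and 1.36 FPKM in WT (edgeR adjusted p = 0.441).

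Among 6 tested relatives of NPH3 and RPT2, NCH1 was the 1 gene that fell and 0 rose (median log2 fold change -0.20). NCH1, which shares the chloroplast accumulation response with RPT2, had 26.54, 29.12 and 29.66 FPKM in agc1-4 and 34.87, 39.26 and 33.51 FPKM in WT (log2 fold change -0.35 ± 0.07, SE; edgeR adjusted p = 0.000746). The values did not overlap, and the call held in all 14 alternatives. NPY1, an NPH3-like protein that works with PID in organ formation, had 4.96, 4.15 and 3.28 FPKM in agc1-4 and 5.09, 5.58 and 4.65 FPKM in WT (edgeR adjusted p = 0.194).

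Of 9 tested phototropin signalling partners, PKS2, a phototropin-binding protein, was the 1 gene that fell (23.4 ± 1.27 FPKM in agc1-4 and 28.9 ± 1.85 FPKM in WT, 1.24-fold lower, edgeR adjusted p = 0.00775), and 0 rose (median log2 fold change -0.05). Its call was lost without agc1-4 replicate 2 or WT replicate 1 (adjusted p = 0.0741 and 0.0606), while 2 genes of the list fell without agc1-4 replicate 1, without WT replicate 3 or without the filter on low counts. The proton pump genes HA1 and HA2, which drive stomatal opening, had log2 fold changes of -0.05 and -0.01.

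Chloroplast movement genes, which act downstream of phototropins, were lower for 3 of 8 tested genes, with 0 higher (median log2 fold change -0.17). CHUP1, which anchors chloroplasts to the plasma membrane and to actin, had 41.79, 43.38 and 37.76 FPKM in agc1-4 and 49.39, 48.51 and 48.56 FPKM in WT. The genotypes did not overlap (log2 fold change -0.28 ± 0.06, SE; edgeR adjusted p = 0.00152), and the call held in all 14 alternatives. JAC1 and WEB1 were 1.21-fold and 1.16-fold lower (edgeR adjusted p = 0.0271 and 0.0495). JAC1 lost its call in 7 of 14 alternatives and WEB1 in all 14, so that 1 gene of the list remained in DESeq2, in limma and without any 1 of the agc1-4 replicates or WT replicate 2.

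Of 11 other photoreceptor genes tested, the cryptochromes CRY2 and CRY1, which also sense blue light, fell and 0 rose (median log2 fold change -0.12). CRY2 had 19.60, 19.97 and 18.66 FPKM in agc1-4 and 25.90, 25.89 and 22.07 FPKM in WT (log2 fold change -0.34 ± 0.08, SE; edgeR adjusted p = 0.00213). CRY1 was 1.16-fold lower (edgeR adjusted p = 0.0312), with overlapping values, and lost its call in 7 of 14 alternatives, among them without agc1-4 replicate 2, without agc1-4 replicate 3 and without WT replicate 1 (adjusted p = 0.141, 0.142 and 0.201). PHYA and PHYB, red and far-red light receptors, had log2 fold changes of -0.05 and -0.03.

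**Figure D5:**
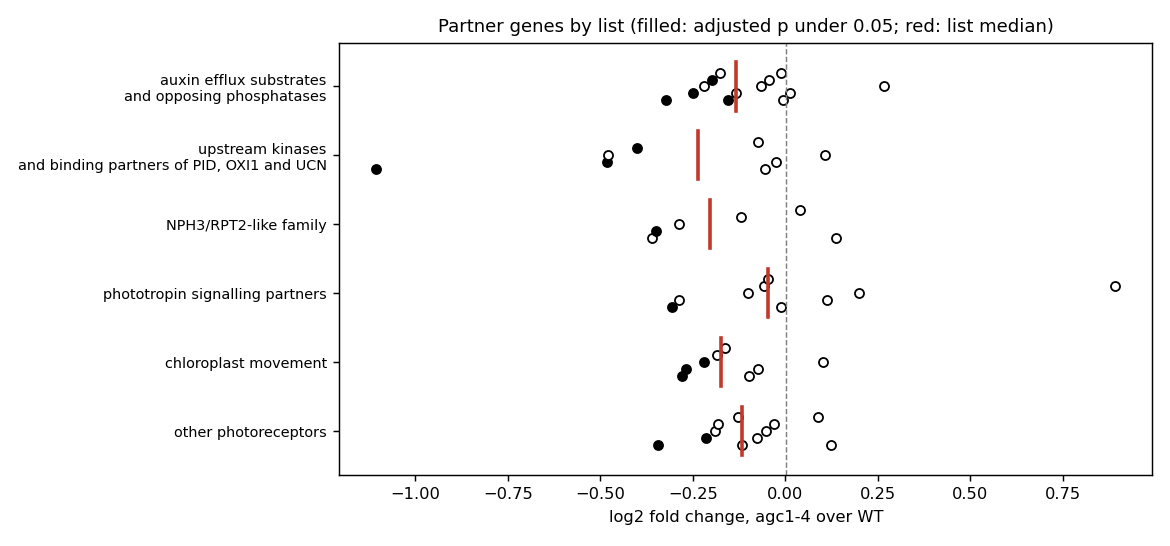
Log2 fold change of agc1-4 over WT (x axis) of the tested partner genes in each of 6 lists (y axis); filled points passed an adjusted p of 0.05, red bars are list medians and the dashed line is the median of all genes tested. All filled points lie below 0, and TCH3 lies farthest left at -1.11.

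Some markers of silique tissues also differed between the genotypes, in both directions. Of all genes tested, 7.07% were called lower and 6.55% higher. Of 6 photosynthesis markers 5 were lower in agc1-4 and 0 higher, and their summed level was 6871 to 7091 FPKM in agc1-4 and 8026 to 8256 FPKM in WT. Of 6 endosperm markers 4 were higher (summed level 196 to 212 FPKM in agc1-4 and 134 to 138 FPKM in WT), as were 3 of 4 tested embryo markers (15.3 to 15.7 FPKM and 4.77 to 6.95 FPKM) and 3 of 6 seed coat markers (674 to 755 FPKM and 581 to 772 FPKM). Of the guard cell and pollen markers 0 were called among 4 and 6 tested. The pollen sum was 168 to 201 FPKM in agc1-4 and 129 to 173 FPKM in WT. The guard cell sum was 87.7 to 90.9 FPKM in agc1-4 and 75.1 to 99.2 FPKM in WT. Most of it was MYB60 (74.7 ± 0.914 FPKM in agc1-4 and 67.5 ± 11.6 FPKM in WT). The other 3 tested guard cell markers had log2 fold changes below 0 (median of the 4 tested -0.30). BAN likewise made up most of the seed coat sum (509 ± 30.1 FPKM in agc1-4 and 470 ± 84.7 FPKM in WT). RBCS1A made up most of the photosynthesis sum (4413 ± 60.3 FPKM and 5124 ± 132 FPKM). No marker was at 0 in all libraries. Among markers not called, 2 guard cell markers, FAMA and KAT1, and the endosperm marker MEA were lower at an unadjusted edgeR p under 0.05. At that threshold 3 pollen markers, VGD1, LAT52 and BCP1, were higher. So were the silique markers SHP1 and ALC and the seed coat marker TT2. DESeq2 and limma each called 0 guard cell markers and 1 pollen marker. They called 2 and 3 embryo markers and 1 and 2 seed coat markers. The part of these tissue differences in the levels of PHOT2, RPT2, WAG1 and PID was not tested.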

How the data were processed

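The estimated counts and the FPKM of 6 libraries were used as the authors deposited them, with units named per the file headers. Between 4.32% and 4.86% of the estimated counts deposited per library were not whole, and they were rounded. The aligner, the counter and the build are not given in the sources used here, so RefSeq TAIR10.1 served only for names, overlapping neighbours and GC content and length. The 10 genes and the partner and marker lists were chosen with earlier results of these data known. The test was that of edgeR 4.0.16 under R 4.3.3 (TMM, filterByExpr, robust quasi-likelihood test without covariates), agc1-4 over WT, with Benjamini-Hochberg adjustment over 18828 genes. The filter removed 8951 rows. The SE was derived from the fold change and its F value. The fit was tested on simulated data. Alternatives were RLE and upper quartile factors, no filter, DESeq2 1.42.0, limma 3.58.1 on log2(FPKM + 1) and log2(FPKM + 0.1) over genes with at least 1 FPKM in 3 libraries, the replicate number as a block and each library left out. Removal of GC and length trends was added after seeing the data. Named genes are the 10 genes, up to 6 called genes of each list by adjusted p, and the genes closest in pattern to each called gene. The phosphatase genes, MPK6, PDK1, KAN4, NPY1, PKS4, the proton pumps, PHYA, PHYB and the markers were named outside that rule, after their values were seen.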

Additional observations from a re-analysis of the deposited data

How the results depend on the processing

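RPT2 and PHOT2 were called lower in each of 14 alternatives, and UCN and NPH3 in none. The number of the 10 genes called lower was 2 in DESeq2 and 2 to 4 when 1 library was left out (2 without agc1-4 replicate 1 or WT replicate 1), against 4 as reported. Over all genes, DESeq2 called 805 lower and 785 higher, limma called 875 lower and 1035 higher with a pseudocount of 1 and 848 lower and 998 higher with 0.1, upper quartile factors gave 1201 lower and 1374 higher, and 823 to 1378 were lower with 1 library left out, against 1331 lower and 1233 higher as reported, so which direction held more calls depended on the setting. In DESeq2 and both limma fits 1 chloroplast movement gene and 1 other photoreceptor gene were lower, and both limma fits called 0 auxin efflux genes. Without the filter 2 phototropin signalling partners were lower. With GC and length trends removed, 1 auxin efflux gene and 1 other photoreceptor gene were lower. With 1 library left out, the numbers lower were 1 to 4 for auxin efflux, 1 to 2 for NPH3 relatives, 0 to 2 for phototropin signalling, 1 to 2 for chloroplast movement and 1 to 3 for other photoreceptors. The difference in log2 ratio of WAG1 to WAG2, -0.10 as reported, was -0.33 with a pseudocount of 1 and -0.31 to 0.16 with 1 library left out (0.07 without agc1-4 replicate 3 and 0.16 without WT replicate 3). That of PID to PID2, 0.21 as reported, was -0.20 with a pseudocount of 1 and -0.36 to 0.81 with 1 library left out (-0.06 without agc1-4 replicate 2 and -0.36 without WT replicate 3). That of PHOT2 to PHOT1, -0.13 as reported, was -0.22 to -0.03 with 1 library left out. The cause of these shifts was not tested. Same-numbered libraries did not deviate together (correlations of -0.0304, 0.00502 and 0.0338). A pairing by number was thus not seen, but 3 libraries per genotype are too few to exclude it. With the replicate block 4 of the 10 genes and 1333 genes in all were lower, ABCB1 and WEB1 lost their calls (adjusted p = 0.0581 and 0.061), and the RPT2 to NPH3 difference of -0.35 had an exact sign-flip p of 0.25. ABCB1 lost its call in 10 of 14 alternatives. Depth limits WAG2, OXI1 and PID2, which had 3 to 31 counts per genotype.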
